A study of Rattus norvegicus with 6 samples.

Results

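The 26 genes described here encode enzymes of cholesterol biosynthesis and the proteins that control them through the transcription factor SREBP2. They were listed by their place in the pathway, with earlier results of these data known, and their probes were found through the RefSeq accession of each probe. All 26 genes were on the array and were well above background on all 6 arrays, among 31637 genes tested in all. Kidney cortex from 6 rats was profiled on 1-colour Agilent microarrays with 1 array per animal. The treated group was 3 male Sprague-Dawley (Crl:CD(SD)) rats dosed for 4 weeks with tricresyl phosphate, 200 mg/kg/day. The other group was 3 males of the same strain given corn oil, also for 4 weeks. All 6 animals were bought at 5 weeks of age and ate the same basal diet. The labels give neither the isomers in the tricresyl phosphate nor the route of dosing. They title the corn oil arrays with the letters VC and do not name the vehicle of the tricresyl phosphate. Tricresyl phosphate is an organophosphate ester used as a plasticiser, lubricant additive and flame retardant. The comparison asks which transcripts of the cortex differ after this dosing.

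Cholesterol is built from acetyl-CoA in the cytosol and the endoplasmic reticulum. The mevalonate steps make isoprenoid units, the squalene steps join and close them into the ring system of lanosterol, and the sterol steps trim lanosterol to cholesterol. The isoprenoids are also drawn off for ubiquinone, dolichol and the lipid anchors of proteins. When sterols run low in the endoplasmic reticulum, the escort protein SCAP takes SREBP2 to the Golgi, where the proteases encoded by Mbtps1 and Mbtps2 release its active part. The released factor binds sterol regulatory elements in the promoters of the pathway's enzymes, usually beside boxes for the factors NF-Y and Sp1. INSIG proteins hold SCAP back when sterols are plentiful. In the kidney cortex the proximal tubule takes up much filtered material, and its cells both make and import cholesterol.

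Promoter windows are shown for 3 enzyme genes, Hmgcs1, Idi1 and Hsd17b7, whose treated and corn oil animals did not overlap. Each window runs from 250 bases before to 50 bases after the RefSeq start of the gene in build GRCr8, written from 5′ to 3′ on the strand of the gene. Capitals mark the NF-Y box CCAAT, which in these windows lies on the opposite strand and reads ATTGG. The Hmgcs1 window is chr2:53382054-53382353 on the plus strand. The Idi1 window is chr17:66547475-66547774 and the Hsd17b7 window is chr13:84722705-84723004, both on the minus strand.
Hmgcs1: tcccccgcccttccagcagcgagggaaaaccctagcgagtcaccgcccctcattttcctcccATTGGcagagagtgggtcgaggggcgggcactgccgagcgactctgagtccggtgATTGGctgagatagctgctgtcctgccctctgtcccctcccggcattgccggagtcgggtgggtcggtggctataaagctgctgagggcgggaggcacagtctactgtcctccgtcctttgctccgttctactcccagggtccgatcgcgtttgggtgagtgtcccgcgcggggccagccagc
Idi1: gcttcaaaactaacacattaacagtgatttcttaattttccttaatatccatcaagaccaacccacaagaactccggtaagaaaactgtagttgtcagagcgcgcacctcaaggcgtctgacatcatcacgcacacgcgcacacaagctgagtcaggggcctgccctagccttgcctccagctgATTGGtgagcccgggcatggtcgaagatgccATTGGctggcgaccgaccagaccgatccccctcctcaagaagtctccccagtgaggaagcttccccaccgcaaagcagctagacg
Hsd17b7: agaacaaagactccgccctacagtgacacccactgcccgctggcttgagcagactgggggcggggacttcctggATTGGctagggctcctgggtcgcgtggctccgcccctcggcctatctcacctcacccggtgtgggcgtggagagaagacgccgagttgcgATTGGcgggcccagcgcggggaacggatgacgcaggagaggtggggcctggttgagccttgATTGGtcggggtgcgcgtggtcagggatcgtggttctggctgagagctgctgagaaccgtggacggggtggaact
The windows of Hmgcs1 and Idi1 each held 2 NF-Y boxes and that of Hsd17b7 held 3.

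The RefSeq table gave a window for 22 of the 26 genes. Motifs were searched as exact letters on both strands, and no motif overlapped a different one in the windows of these genes. Matches of GGGCGG overlapped each other in 2 windows, those of Dhcr7 and Mbtps1. The NF-Y box CCAAT was present in 16 of the 22 windows (72.7%), beside 37.5% of all 33469 promoter windows in the table and 37.7% of the 10654 windows of genes tested here. At least 2 such boxes were present in 10 of the 22 windows (45.5%), beside 11.2% of all windows. Mvk and Nsdhl had the most, with 5 each. Among the enzymes 13 of 16 windows held the box, and among the control and transfer genes 3 of 6 did, those of Srebf2, Insig1 and Insig2. The Sp1 box GGGCGG was present in 17 of the 22 windows (77.3%), beside 33.1% of all windows and 56.4% of those of genes tested here. The letters TCACNCCAC, used for a sterol regulatory element, were present in 0 of the 22 windows and in 1.12% of all windows. With letters this rare, a count of 0 in 22 windows does not show that these promoters lack the element. Windows of this length leave out elements that lie farther away, and a match in letters is not a measured binding site.

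A level below is a probe's processed signal in log2, less the 75th percentile of log2 signals on its array, and a difference is the mean level with tricresyl phosphate minus the mean level with corn oil. A gene is represented by its kept probe with the highest mean level. Levels of different genes come from different probes and are not compared with each other. The 6 arrays had median processed signals of 102.6 to 133.2 over median local backgrounds of 33.0 to 41.0, and 41503 to 43823 probes per array were well above background. One slide carried corn oil replicate 1 by itself, and a second slide carried the other 5 arrays.

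The cortex markers were present: all 6 proximal tubule markers were well above background. Their summed linear level was 1206 to 1374 with tricresyl phosphate and 1330 to 1438 with corn oil. Of the 6, 5 had differences below 0, beside 76.0% of all genes in the brightest of 5 signal classes, where these markers lie. Of 7 markers of the adrenal cortex, a neighbouring organ that makes much cholesterol, 4 (Star, Cyp11b1, Mc2r and Nr5a1) never stood well above background. Cyp21a1, the one adrenal marker above background on every array, lay between −2.03 and −1.94 with tricresyl phosphate and between −2.07 and −1.91 with corn oil. The summed level of 4 red blood cell markers was 142 to 183 with tricresyl phosphate and 188 to 210 with corn oil, so the groups did not overlap. Most of that sum came from Hbb, at log2 levels of 7.06 to 7.63. At an unadjusted p under 0.05, 3 of the 4 were lower, beside 3.86% of all genes. The other marker, Slc4a1, had a difference of 0.08 with overlapping groups. Hepatocyte markers varied from animal to animal within both groups, with summed levels of 2.29 to 6.80 with tricresyl phosphate and 1.51 to 8.74 with corn oil. All 4 fibroblast markers had differences below 0, beside 59.2% of all genes. Their summed level was 16.1 to 22.3 with tricresyl phosphate and 19.5 to 26.9 with corn oil. The part of these cell types in the results below was not tested, except that the 2 animals with the highest hepatocyte markers were left out together: 19 of the 26 genes were then below 0, beside 56.8% of all genes, with a median of −0.11. In bulk cortex, fewer cells of a type and less RNA per cell cannot be told apart.

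Most cholesterol synthesis genes had slightly lower levels in the treated animals, and none differed by enough to pass the test. Of the 26 genes 21 had a difference below 0 (80.8%), beside 59.2% of all genes tested. The other 5 were Acat2, Lss, Nsdhl, Scap and Mbtps2. The median difference of the 26 genes was −0.13 on the log2 scale, beside −0.04 over all genes tested. On the slide that carried both groups, without corn oil replicate 1, 22 genes were below 0, beside 58.1% of all genes, and the median was −0.12. At an adjusted limma p under 0.05, 0 of the 26 genes passed and 0% of all genes did. The adjusted limma p-values of the 26 genes ran from 0.811 to 0.990. At an unadjusted p under 0.05, 2 of the 26 were lower with tricresyl phosphate (7.69%), Idi1 and Hsd17b7, and 0 were higher, beside 3.86% lower and 1.63% higher over all genes. That count of 2 was 0 without corn oil replicate 2 and 4 without tricresyl phosphate replicate 3, and it was 1 without corn oil replicate 1, tricresyl phosphate replicate 1 or tricresyl phosphate replicate 2. Over all genes that share ran from 2.96% to 5.18% when 1 animal was left out.

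Groups that do not overlap were also counted. In 6 of the 26 genes (23.1%) all 3 treated animals lay below all 3 corn oil animals, beside 7.95% of all genes. In 0 of the 26 did all 3 treated animals lie above, beside 3.85% of all genes. The 6 genes were Hmgcs1, Mvk, Idi1, Tm7sf2, Hsd17b7 and Insig1. With fewer animals to overlap, the count was 10 without tricresyl phosphate replicate 3, beside 12.4% of all genes, and 12 without corn oil replicate 3, beside 17.8% of all genes. With the mean of all kept probes of a gene it was 4, beside 7.42% of all genes. The genes were also set beside all genes of like signal, in 5 classes. In the brightest class, which holds 11 of the 26 genes, 76.0% of all genes had a difference below 0 and 12.6% had treated animals all below. In that class 9 of the 11 genes were lower, with a median of −0.15, beside −0.07 over all genes of the class. In the class below it 7 of 8 were lower, beside 55.8% of all genes, and in the middle class 5 of 6, beside 50.6%.

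**Figure D1:**
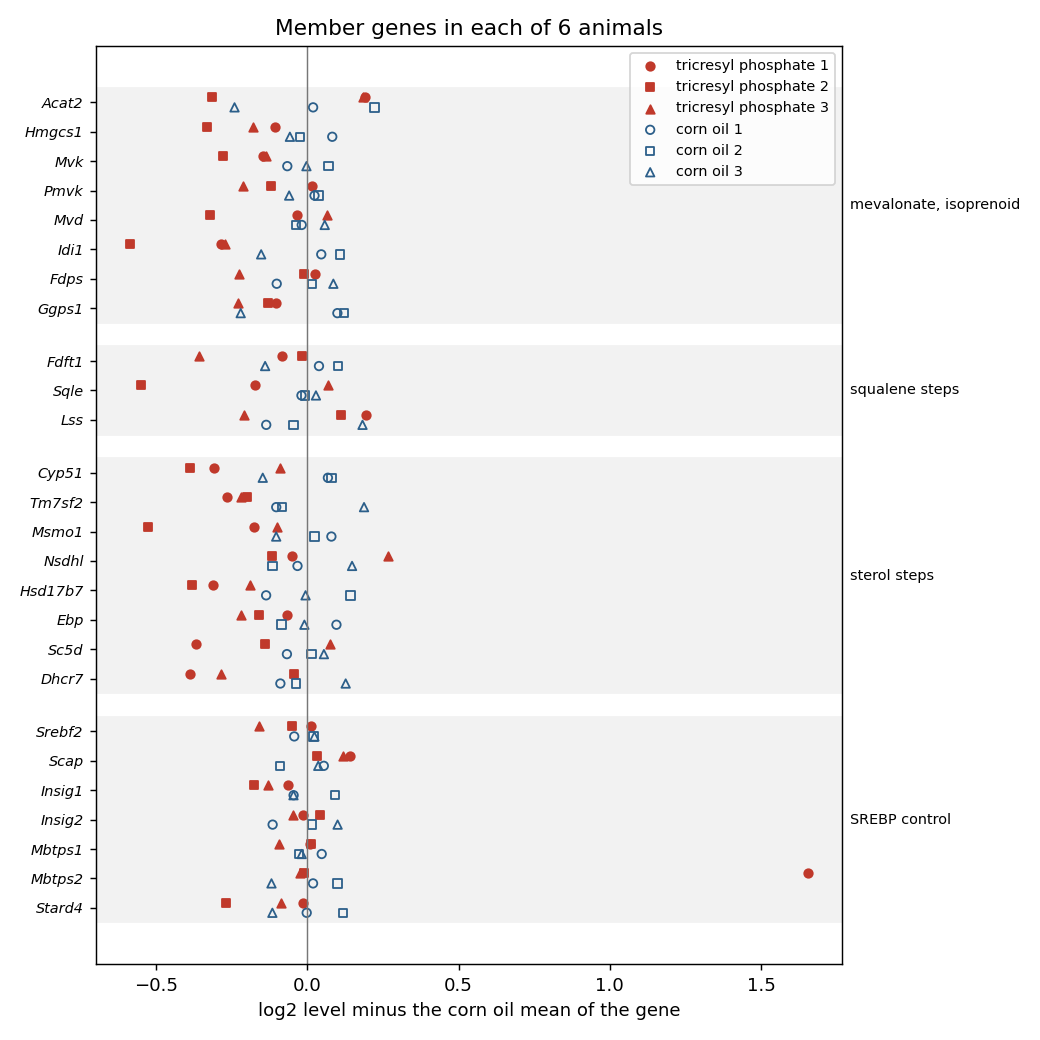
Level of each of the 26 genes in each animal, as the log2 level minus the corn oil mean of that gene, in pathway order. Filled red symbols are the 3 tricresyl phosphate animals and open blue symbols the 3 corn oil animals; the red symbols of Idi1 and Hsd17b7 lie left of all blue ones, and tricresyl phosphate replicate 1 stands far to the right in Mbtps2.

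The mevalonate and isoprenoid steps were lower in 7 of 8 genes, with a median difference of −0.13. Idi1, which encodes the isomerase that balances both isopentenyl building blocks, had the smallest p of all 26 genes. Its levels were 0.44, 0.14 and 0.45 with tricresyl phosphate and 0.77, 0.83 and 0.57 with corn oil. The highest treated animal lay below the lowest corn oil animal, and tricresyl phosphate replicate 2 was the lowest of all 6. The difference was −0.38 ± 0.13 (SE), a 0.768-fold level, with a 95% interval of −0.69 to −0.07, an unadjusted p of 0.0241 and an adjusted limma p of 0.811. All 3 Idi1 probes gave groups that do not overlap, with differences of −0.38, −0.38 and −0.28.

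Hmgcs1, the cytosolic synthase that makes HMG-CoA, had levels of 2.57, 2.35 and 2.50 with tricresyl phosphate and 2.76, 2.65 and 2.62 with corn oil. The groups did not overlap, though the nearest animals differed by little. Its mean was 2.47 ± 0.11 with tricresyl phosphate and 2.68 ± 0.07 with corn oil (SD, n = 3 each), a difference of −0.21 ± 0.10 (SE). Another Hmgcs1 probe gave −0.22 without overlap, and the dimmest gave 0.04 with overlap.

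Mvk encodes mevalonate kinase, which adds the phosphate that starts the conversion of mevalonate to isoprenoids. Its levels were −1.52, −1.65 and −1.51 with tricresyl phosphate and −1.44, −1.30 and −1.37 with corn oil. All treated animals were lower than all corn oil animals, by a mean of −0.19 ± 0.09 (SE). The next enzymes of the chain overlapped between groups: the difference of Pmvk, phosphomevalonate kinase, was −0.11 ± 0.09 (SE), −0.05 without tricresyl phosphate replicate 3 and −0.17 without replicate 1. Mvd, the decarboxylase that yields isopentenyl diphosphate, differed by −0.10 ± 0.12 (SE). Its treated animals were at 0.53, 0.24 and 0.63 and its corn oil animals at 0.54, 0.52 and 0.62, so tricresyl phosphate replicate 2 alone stood low, and the difference was 0.02 without it. It was −0.18 without tricresyl phosphate replicate 3.

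Fdps makes farnesyl diphosphate, the branch point to sterols and to the nonsterol isoprenoids. Its levels were 2.79, 2.75 and 2.54 with tricresyl phosphate and 2.66, 2.78 and 2.85 with corn oil, and the groups overlapped. The 3 Fdps probes gave differences of −0.07, −0.11 and −0.09. Ggps1, which makes geranylgeranyl diphosphate for protein anchors, gave −0.15 ± 0.12 (SE) at its brighter probe and 0.07 at its dimmer one. The brighter probe gave −0.09 without corn oil replicate 2 and −0.26 without corn oil replicate 3. Acat2, here the cytosolic thiolase at the start of the pathway, was the exception in this group with 0.02 ± 0.19 (SE). Its levels were spread within each group, at 3.50, 2.99 and 3.49 with tricresyl phosphate and 3.33, 3.53 and 3.07 with corn oil, and the other Acat2 probe also gave 0.02.

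**Figure D2:**
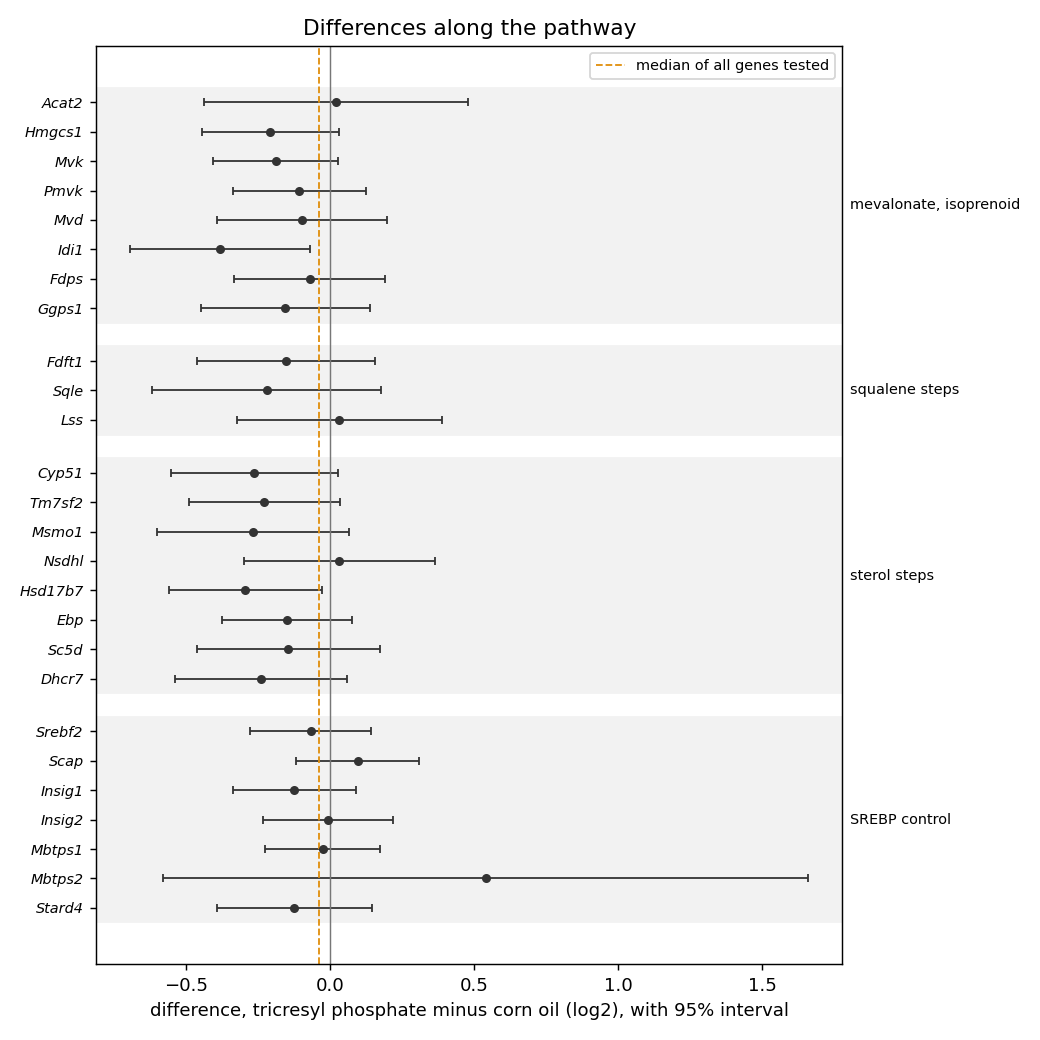
Difference between tricresyl phosphate and corn oil for each gene in log2 units, with the 95% interval from limma, in pathway order; the dashed line is the median of all genes tested, −0.04. Intervals of Idi1 and Hsd17b7 lie wholly below 0 before adjustment, and the interval of Mbtps2, from −0.58 to 1.66, is the widest.

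In all 3 squalene genes the treated and corn oil animals overlapped, and 2 of the 3 were lower. Sqle encodes squalene epoxidase, an oxygen-dependent and often rate-limiting enzyme of the late pathway. Its levels were 1.12, 0.74 and 1.36 with tricresyl phosphate and 1.27, 1.28 and 1.32 with corn oil. The corn oil animals lay close together, whereas treated replicate 2 was the lowest and treated replicate 3 the highest of the 6. The difference was −0.22 ± 0.16 (SE), −0.05 without tricresyl phosphate replicate 2 and −0.36 without replicate 3. Its other probe gave −0.13.

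Fdft1, squalene synthase, was at 2.79, 2.85 and 2.51 with tricresyl phosphate and at 2.91, 2.97 and 2.73 with corn oil. The groups overlapped through treated replicates 1 and 2 and corn oil replicate 3. The difference was −0.15 ± 0.13 (SE), with the other probe at −0.05, and it was also −0.05 without tricresyl phosphate replicate 3. Lss, the cyclase that makes lanosterol, was at 0.70, 0.62 and 0.30 with tricresyl phosphate and at 0.37, 0.46 and 0.69 with corn oil. Its groups covered almost the same range, and its difference of 0.03 ± 0.15 (SE) changed sign without tricresyl phosphate replicate 1, without tricresyl phosphate replicate 2 and without corn oil replicate 1.

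The sterol steps had the lowest median of the 4 groups of genes, −0.23, with 7 of 8 genes lower. Hsd17b7, a ketoreductase in the removal of methyl groups from the sterol ring, was at −1.92, −1.98 and −1.79 with tricresyl phosphate and at −1.74, −1.46 and −1.61 with corn oil. The groups did not overlap, with treated replicate 3 and corn oil replicate 1 closest. The difference was −0.29 ± 0.11 (SE), a 0.816-fold level, with a 95% interval of −0.56 to −0.03, an unadjusted p of 0.0350 and an adjusted limma p of 0.811. The other Hsd17b7 probe gave −0.26 with overlap.

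Tm7sf2 encodes a sterol reductase that acts after the lanosterol demethylase. Its levels were 1.91, 1.98 and 1.96 with tricresyl phosphate and 2.07, 2.09 and 2.36 with corn oil. The treated animals were close together and below all corn oil animals, of which replicate 3 was highest. The difference was −0.23 ± 0.11 (SE), or −0.13 without that animal, and its mean was 1.95 ± 0.03 with tricresyl phosphate and 2.18 ± 0.16 with corn oil (SD, n = 3 each). The dimmer Tm7sf2 probe gave −0.39 ± 0.09 (SE), the lowest value among all member probes, with levels of −0.12, −0.01 and 0.01 with tricresyl phosphate and 0.33, 0.27 and 0.45 with corn oil. Those groups were well separated, yet the adjusted limma p over all probes was 0.816.

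Cyp51, the lanosterol demethylase, was at −0.59, −0.66 and −0.37 with tricresyl phosphate and at −0.21, −0.20 and −0.42 with corn oil. Treated replicate 3 and corn oil replicate 3 crossed. The difference was −0.26 ± 0.12 (SE) at the brighter probe and −0.03 ± 0.16 (SE) at the dimmer one. Msmo1, the monooxygenase that oxidises sterol methyl groups, was at 3.92, 3.57 and 3.995 with tricresyl phosphate and at 4.18, 4.12 and 3.993 with corn oil, a difference of −0.27 ± 0.14 (SE). Only the third replicates of both groups met, and treated replicate 2 stood lowest. The difference was −0.14 without that animal.

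Dhcr7 catalyses the last reduction to cholesterol. It was at 1.83, 2.18 and 1.94 with tricresyl phosphate and at 2.14, 2.19 and 2.35 with corn oil, a difference of −0.24 ± 0.12 (SE). Treated replicate 2 lay among the corn oil animals here, unlike in Idi1, Sqle or Msmo1. Ebp, the sterol isomerase, differed by −0.15 ± 0.09 (SE) and Sc5d, the desaturase of the same stretch, by −0.14 ± 0.13 (SE), both with overlap. The Sc5d difference was −0.03 without tricresyl phosphate replicate 1 and −0.25 without replicate 3. Nsdhl, the dehydrogenase that works with Msmo1 and Hsd17b7, differed by 0.03 ± 0.14 (SE), with treated animals at −0.50, −0.57 and −0.18 and corn oil animals at −0.48, −0.56 and −0.30.

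**Figure D3:**
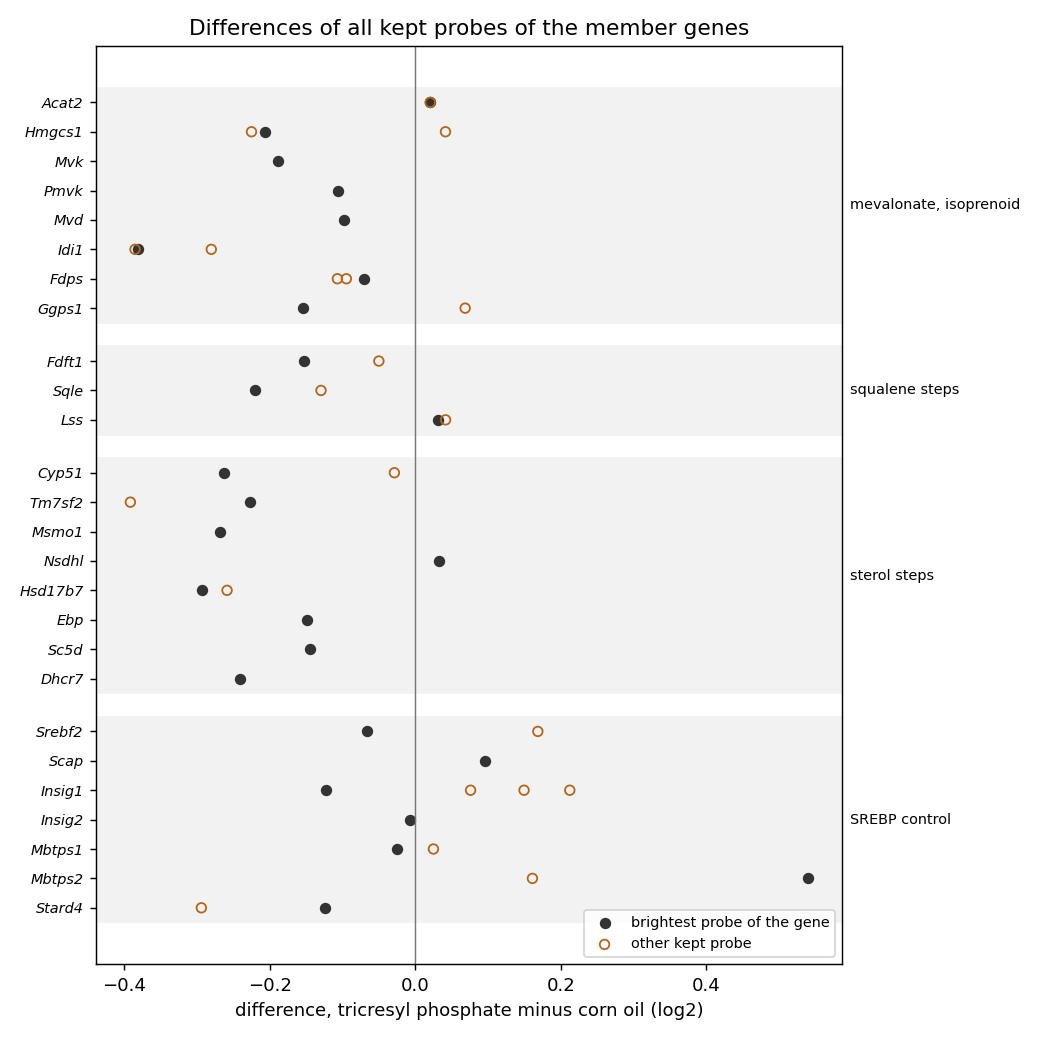
Difference between tricresyl phosphate and corn oil (log2) for each of the 47 kept probes of the 26 genes; filled points are the brightest probe of each gene and open points the others. The 3 probes of Idi1 lie together on the left, and those of Insig1 lie on both sides of 0.

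Of the 7 control and transfer genes 5 were lower, with a median of −0.02, whereas 16 of the 19 enzymes were lower, with a median of −0.15. The difference between these groups of genes was not tested. Srebf2, the gene of SREBP2 itself, was at 1.70, 1.64 and 1.53 with tricresyl phosphate and at 1.65, 1.71 and 1.71 with corn oil. The groups overlapped, and the difference was −0.07 ± 0.09 (SE), with a 95% interval of −0.28 to 0.14. Without tricresyl phosphate replicate 3 it was −0.02, and without replicate 1 −0.11. A dimmer Srebf2 probe gave 0.17 ± 0.11 (SE), so the mean of its kept probes had the opposite sign, and the last of its 3 probes never stood well above background.

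Insig1, an SREBP target whose protein retains SCAP, was at 2.27, 2.16 and 2.20 with tricresyl phosphate and at 2.29, 2.43 and 2.29 with corn oil. The groups were separated by a narrow gap, and the difference was −0.12 ± 0.09 (SE), or −0.08 without corn oil replicate 2. The other Insig1 probes, all dimmer, gave differences of 0.08, 0.21 and 0.15 with overlapping groups, so the sign rests on the probe. Insig2, its relative, differed by −0.01 ± 0.09 (SE), and this sign turned with the array median in place of the 75th percentile and with normexp background correction.

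Scap, the escort of SREBP2, differed by 0.10 ± 0.09 (SE), with levels of 2.19, 2.08 and 2.17 with tricresyl phosphate and 2.11, 1.96 and 2.09 with corn oil. It had its highest 2 animals among the treated ones, and the groups overlapped. Without corn oil replicate 2 the difference was 0.05. Mbtps1, the site-1 protease, gave −0.02 ± 0.08 (SE) at the brighter probe and 0.03 at the dimmer, and its sign turned under quantile, cyclic loess and normexp normalization.

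Mbtps2, the site-2 protease, had the largest spread of the 26 genes. It was also the only 1 of them in the dimmest of the 5 signal classes. Its levels were −2.70, −4.37 and −4.38 with tricresyl phosphate and −4.34, −4.26 and −4.48 with corn oil. Tricresyl phosphate replicate 1 stood far above the other 5 animals, which lay close together. The difference of 0.54 ± 0.46 (SE) was −0.02 without that animal. The other Mbtps2 probe, at −4.44, −4.70 and −4.27 with tricresyl phosphate and −5.03, −4.54 and −4.32 with corn oil, did not single that animal out. Stard4, a sterol transfer protein whose gene is an SREBP2 target, was at 1.77, 1.52 and 1.70 with tricresyl phosphate and at 1.79, 1.91 and 1.67 with corn oil, a difference of −0.12 ± 0.11 (SE). It was −0.05 without tricresyl phosphate replicate 2 and −0.07 without corn oil replicate 2. The dimmer Stard4 probe gave −0.29 ± 0.19 (SE) with overlap.

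Among the 47 kept probes of these genes 32 had a difference below 0 (68.1%), beside 55.2% of all kept probes. Treated animals lay below all corn oil animals at 11 of the 47 probes (23.4%), beside 7.08% of all kept probes. Of the 16 genes with several kept probes, 8 had all of them below 0, namely Idi1, Fdps, Fdft1, Sqle, Cyp51, Tm7sf2, Hsd17b7 and Stard4. Another 3, Acat2, Lss and Mbtps2, had all of them above 0. In the remaining 5, Hmgcs1, Ggps1, Srebf2, Insig1 and Mbtps1, the probes disagreed in sign. Probes of 1 gene share the RNA of the same animals and are not independent.

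The animals did not contribute equally. Each gene's levels were set against its own mean over the 6 animals, and the median over the 19 enzymes was −0.04, −0.13 and −0.08 in tricresyl phosphate replicates 1, 2 and 3. It was 0.03, 0.09 and 0.09 in corn oil replicates 1, 2 and 3. Over all genes tested the same median ran from −0.05 to 0.01 with tricresyl phosphate and from 0.01 to 0.04 with corn oil. The lowest of the 6 animals was a treated one in 23 of the 26 genes: tricresyl phosphate replicate 2 in 12, replicate 3 in 8 and replicate 1 in 3. Over the 31613 genes with a value on every array, the lowest animal was a treated one in 56.1%, with tricresyl phosphate replicate 2 lowest in 17.4% and replicate 3 in 28.2%. The highest was a corn oil animal in 19 of the 26, most often corn oil replicate 2, which was highest in 10. Over all these genes a corn oil animal was highest in 60.0%, and corn oil replicate 2 in 16.2%. Tricresyl phosphate replicate 2 was highest in 0 of the 26 genes, beside 13.4% of all genes. No enzyme had its lowest level in a corn oil animal. Without tricresyl phosphate replicate 2 the median difference of the 26 genes was −0.10, and 21 were below 0.

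**Figure D4:**
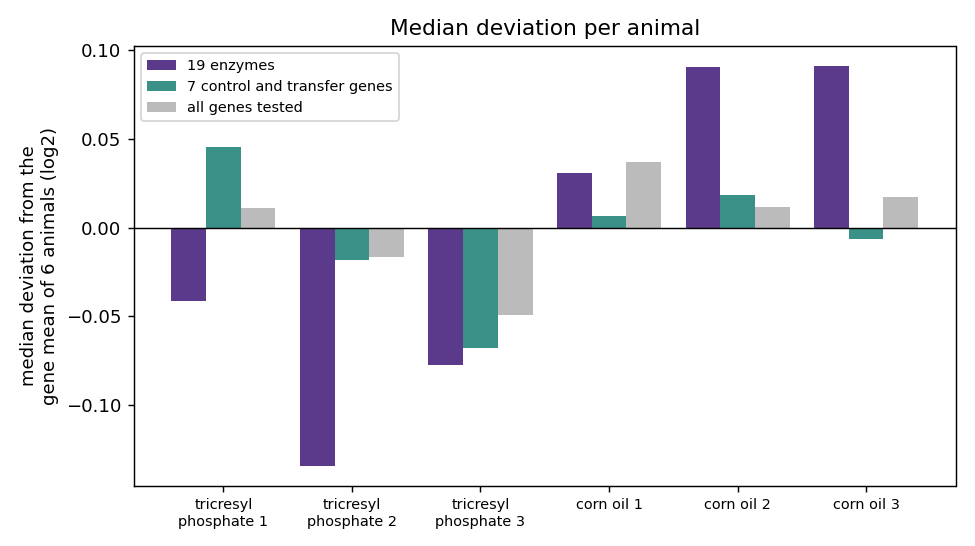
Median deviation of each animal, in log2 units, from the mean of each gene over the 6 animals, for the 19 enzymes, the 7 control and transfer genes and all genes tested. The enzyme bars lie below 0 in the 3 tricresyl phosphate animals (−0.13 in replicate 2) and above 0 in the 3 corn oil animals.

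The 95% interval at the brightest kept probe of a gene shows how large a decrease that probe allows, taken by itself. The intervals were not adjusted for the number of genes, so their lowest ends are not joint limits. The lowest end of any such 95% interval among the 26 genes was −0.69, at Idi1, a 0.619-fold level. For the enzymes other than Idi1, Sqle and Msmo1, the lowest end was −0.56, at Hsd17b7. For Srebf2, Scap, Insig1, Insig2 and Mbtps1 both ends lay between −0.34 and 0.31. Intervals of dimmer probes are not given and can reach beyond these ends. A p that misses the threshold does not show that the level was the same in both groups.

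Neighbouring lists hold other genes of sterol, isoprenoid and fatty acid metabolism. Of 55 such genes tested 27 had a difference below 0 (49.1%), beside 59.2% of all genes. Their median was 0.00063, beside −0.04 over all genes, though single lists leaned either way. None had an adjusted limma p below 0.05. Before adjustment Lcat alone had a p below 0.05, and its level was higher with tricresyl phosphate. So 0 of the 55 genes were lower by this measure, beside 3.86% of all genes, and 1 was higher, beside 1.63%. The nonsterol isoprenoid branch, which spends the products of Fdps and Ggps1, was lower in 7 of 14 genes. Fntb, a farnesyltransferase subunit, had the smallest p-value there, with a difference of 0.14 ± 0.10 (SE). Genes of sterol-regulated degradation in the endoplasmic reticulum were lower in 3 of 8, with Erlin1 at 0.15 ± 0.09 (SE), its treated animals all above the corn oil ones, and the ubiquitin ligase gene Syvn1 at 0.09 ± 0.08 (SE).

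Cholesterol trafficking and uptake genes were lower in 2 of 12, with a median of 0.09. Those 2 also had the smallest p-values: Stard3, a late endosomal sterol transfer protein, at −0.17 ± 0.12 (SE) and Gramd1c at −0.22 ± 0.17 (SE). Efflux genes and targets of the sterol receptor LXR were lower in 6 of 7, with a median of −0.04. The ubiquitin ligase gene Mylip differed there by −0.17 ± 0.15 (SE) and Nr1h2, which encodes LXR beta, by 0.08 ± 0.10 (SE). Esterification and oxidation genes were lower in 2 of 6. Lcat, the plasma cholesterol acyltransferase, was at −1.37, −1.49 and −1.58 with tricresyl phosphate and at −1.78, −1.80 and −1.79 with corn oil. All treated animals were above all corn oil animals, by a mean of 0.31 ± 0.09 (SE). Its adjusted limma p was 0.811. Soat1, the intracellular acyltransferase, differed by 0.27 ± 0.16 (SE).

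The SREBP1 fatty acid genes, which share the SCAP and INSIG control with the cholesterol genes, were lower in 7 of 8, with a median of −0.06. Acly, which makes cytosolic acetyl-CoA for both pathways, was at 3.35, 3.54 and 3.57 with tricresyl phosphate and at 3.67, 3.65 and 3.71 with corn oil. The groups did not overlap, and the difference was −0.19 ± 0.09 (SE). Acaca, acetyl-CoA carboxylase, differed by −0.17 ± 0.11 (SE). Neither passed the test, with adjusted limma p-values of 0.811.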

How the data were processed

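RNA from 6 renal cortices was hybridised to 1-colour Agilent arrays, 3 with tricresyl phosphate and 3 with corn oil. Separate animals are the replicates, per the labels' protocols. The authors quantified the arrays with Agilent Feature Extraction 10.7, per the submitters' processing notes. The deposited intensity values are linear processed signals after background subtraction, per the file headers. The authors' value table holds the same intensity values divided by 1 number per array, close to its 75th percentile. The array annotation was rn4 per the file headers, so probes were named by accession through the RefSeq table of GRCr8, and only promoter windows carry coordinates.

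Deposited signals were taken to log2 and each array's 75th percentile over 61537 non-control probes was subtracted. Outlier spots (77) were set missing, and 0 spots were saturated. A probe was kept if well above background on at least 3 of 6 arrays (43099 probes), and each gene took its kept probe with the highest mean level. A moderated linear model compared the groups over 31637 genes (lmFit, then eBayes; limma 3.58.1, R 4.3.3). Its p-values are two-sided and were adjusted by the Benjamini-Hochberg method over all genes. The procedure was run on simulated data to check that it returned the differences put in. That check is not used here as a measure of how small a difference would pass. The number of arrays limits precision. The members and lists were chosen with earlier results of these data known. All 26 members are named, and beside them the 2 genes with the smallest p in each neighbouring list, of which 1 is not reported here. Cell type markers came from a written list. Alternatives were 3 other normalizations, normexp background correction, the authors' table, other filters, probe rules and variance models, outlier spots kept, slide and replicate blocks and leaving out animals.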

Additional observations from a re-analysis of the deposited data

How the results depend on the processing

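Under 19 alternatives, 0 of the 26 genes passed at an adjusted limma p under 0.05, between 18 and 24 had a difference below 0, and their median stayed between −0.17 and −0.10. In 15 genes the sign was the same under all 19, though not all of these changed the differences. The other filters, the intensity trend, outlier spots kept and the replicate block left the 26 differences unchanged, and the authors' table nearly so. The slide as a block gave the same differences as leaving out corn oil replicate 1. Over all genes, normexp background correction and the intensity trend with robust estimation each called 2 genes, where the setting reported gave 0, and leaving out an animal gave 0 to 1. Pathway genes lower at an unadjusted p under 0.05, 2 as reported, numbered 4 with the intensity trend, beside 4.18% of all genes. They numbered 1 with the slide as a block, beside 2.96% of all genes. Without an animal they numbered 0 to 4, beside 2.96% to 5.18% of all genes. Pathway genes whose groups do not overlap, 6 as reported, numbered 5 under quantile, cyclic loess and normexp normalization (6.42% to 7.21% of all genes). They numbered 4 with the mean of all kept probes (7.42% of all genes). Without an animal they numbered 7 to 12, with 12 without corn oil replicate 3 and 10 without tricresyl phosphate replicate 3. Fewer animals overlap less, and the share of all genes was then 12.1% to 18.1%, beside 7.95% as reported. Probes of the 26 genes with a difference below 0 numbered 30 to 36. The animals with the highest hepatocyte markers (tricresyl phosphate replicate 3, corn oil replicate 2) were both left out in an alternative chosen after seeing the data. There 13 pathway genes did not overlap (20.7% of all genes) and 0 were lower at an unadjusted p under 0.05 (3.16% of all genes). Fdps (0.0156), Fdft1 (0.00068), Nsdhl (−0.14) and Insig2 (0.0212) then turned sign. The replicate block left 0 of them lower at an unadjusted p under 0.05. Same-numbered animals deviated with correlations of 0.09, −0.05 and −0.04, beside −0.08 to 0.12 between treated and corn oil animals of different numbers. These values show no pairing by number and cannot exclude it. Signs also turned for Mbtps1 under quantile (0.0305) and cyclic loess (0.0263) normalization, for Insig2 with the array median (0.000354), and for Insig2 (0.0237) and Mbtps1 (0.0672) under normexp. With the mean of all kept probes, Srebf2 (0.0511), Insig1 (0.0789) and Mbtps1 (0.000193) turned, and with the slide as a block Lss did (−0.0363). Without an animal the differences ran from −0.10 to 0.19 in Acat2, −0.18 to 0.0151 in Mvd, −0.12 to 0.00782 in Fdps, −0.0500 to 0.15 in Lss, −0.0845 to 0.11 in Nsdhl, −0.0644 to 0.0431 in Insig2, −0.0432 to 0.0105 in Mbtps1 and −0.0179 to 0.82 in Mbtps2. Apart from fewer animals, the cause was not tested.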
